A study of Mus musculus with 24 samples.

Results

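Of 24 sciatic nerve RNA sequencing libraries from a mouse model of plexiform neurofibroma, 6 held few transcripts of sensory neurons, and they are described here against the other 18. The 6 neuron-poor libraries were vehicle 1, vehicle 5, CDKi 3, CDKi 5, combination 3 and combination 5, and values of the 6 are given in that order throughout. They were chosen from these same data by the levels of Scn10a, Nefl and Prph, so differences between the 6 and the 18 are descriptions and carry no test. A neuron score, the mean log2 CPM of these 3 genes (CPM is a gene's count scaled to the library's total), was 0.623 in vehicle 1, 3.61 in vehicle 5, 1.04 in CDKi 3, 0.703 in CDKi 5, 5.52 in combination 3 and 1.40 in combination 5. The score of the nearest libraries outside the set was 7.10 in vehicle 4 and 7.29 in combination 4, and the highest was 9.40 in ERKi 3.

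Every mouse carried Nf1 flox/flox alleles and PostnCre+, a Cre recombinase under Postn control, and the labels name neither a wild-type control nor the cells in which Nf1 was lost. Animals were treated for 1 week with vehicle, with LY3214996 (an ERK1/2 inhibitor, ERKi), with abemaciclib (a CDK4/6 inhibitor, CDKi) or with both (combination), and each group had 6 libraries. The whole sciatic nerve was the labelled tissue in all 4 groups, plexiform neurofibroma was the labelled tumor stage, and age was not given. The labels do not say that the 6 libraries of a group came from separate animals, so a p-value covers the spread among these libraries alone, and that spread may be technical.

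Plexiform neurofibroma is a tumor of the nerve sheath that arises when cells of the Schwann lineage lose Nf1, a negative regulator of RAS. The cell bodies of sensory neurons lie in the dorsal root ganglia, each wrapped by satellite glia, and send their axons through the spinal nerves into the sciatic nerve. The nerve itself holds axons, the Schwann cells that ensheathe them, endoneurial fibroblasts, perineurial cells, vessels and macrophages. Most neuronal messenger RNA is found in the cell body, while axons carry a smaller selected set.

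Total counts were 5391543 to 42321550 over the 24 libraries and 11686288 to 19757307 in the 6. The shallowest library, vehicle 3, was neuron-rich. The next were vehicle 1 (11686288) and combination 3 (12096063), both neuron-poor. A count of 3, used as the limit of detection, was 0.0697 to 0.536 CPM depending on the library and covers counting error only. ERKi 3, CDKi 1 and CDKi 3 held liver RNA (Alb at 4543, 3155 and 4534 CPM) and CDKi 5 held skeletal muscle RNA (Myh4, a fast myosin heavy chain, at 403 CPM). ERKi held 0 of the 6 and each of the other groups 2, an imbalance of ERKi against the other 3 groups that did not pass Fisher's exact test (two-sided p = 0.277). Sample titles are numbers that begin with 4 or with 5, and 3 of the 12 libraries of each kind were neuron-poor. Y-linked transcripts were above 100 CPM in 4 of the 6 libraries and in 10 of the 18. Of these, CDKi 2 (219 CPM) also held 12450 counts of Xist, an RNA of the inactive X chromosome. ERKi 3 and CDKi 3 held 16.2 and 16.6 CPM of Y-linked transcripts beside 14093 and 44551 counts of Xist. Whether RNA of more than 1 animal was mixed in these libraries was not tested.

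The genes that chose the libraries set the scale of the difference. Scn10a encodes the sodium channel Nav1.8 of nociceptors, the neurons that sense damage, and in the RefSeq annotation of GRCm38.p6 it lies at chr9:119608456-119719322. Its level in the 6 libraries was 0.355, 9.76, 1.23, 0.215, 52.2 and 0.316 CPM, and the lowest, median and highest values of the 18 were 102, 222 and 634 CPM, a fitted log2 difference of -5.20 ± 0.86 (neuron-poor minus neuron-rich, with its SE). Nefl, the light neurofilament chain of the axonal cytoskeleton at chr14:68083863-68089095, was at 1.86, 30.3, 3.61, 2.90, 87.7 and 8.08 CPM in the 6, and the lowest, median and highest values of the 18 were 255, 552 and 1534 CPM (-4.96 ± 0.67). Prph, which encodes peripherin, a filament of small peripheral neurons at chr15:99053579-99058978, was at 3.82, 5.92, 1.64, 4.24, 20.7 and 5.11 CPM in the 6, and the lowest, median and highest values of the 18 were 70.8, 126 and 317 CPM (-4.43 ± 0.40). For all 3 genes the groups did not overlap, combination 3 was the highest of the 6 and ERKi 3 the highest of the 18. In bulk tissue fewer neurons and less RNA per neuron cannot be told apart, here or in the values that follow.

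**Figure D1:**
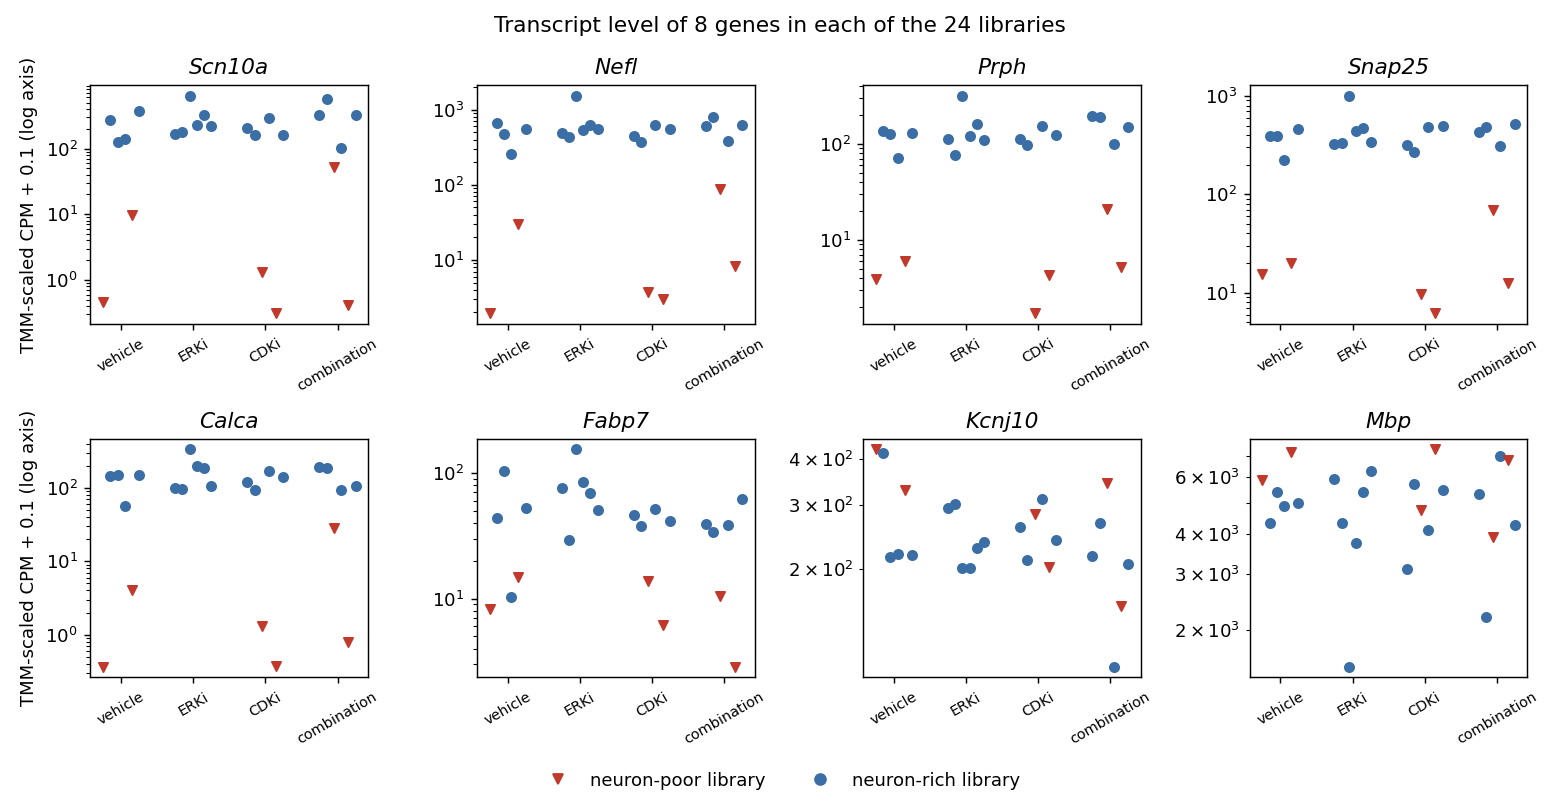
Each point is 1 library, with the treatment group on the x axis and the TMM-scaled CPM plus 0.1 on a log y axis; triangles are the 6 neuron-poor and circles the 18 neuron-rich libraries. Scn10a, Nefl, Prph, Snap25 and Calca separate the 2 kinds of library completely, the satellite glia gene Fabp7 does so in part, and Kcnj10 and Mbp do not.

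Promoters are printed for the markers Scn10a and Prph, which were used to choose the libraries, and for Chgb and Scg2, granins of dense-core vesicles that were lower in the 6 libraries and share a motif. Each line gives the 250 bases before an annotated start site (a gene can have more than 1), 5′ to 3′ on the gene's strand, from RefSeq (GRCm38.p6); capitals mark TATAAA (the TATA box) or TGACGTCA (the cAMP response element).
Scn10a (chr9:119719033-119719282, minus strand): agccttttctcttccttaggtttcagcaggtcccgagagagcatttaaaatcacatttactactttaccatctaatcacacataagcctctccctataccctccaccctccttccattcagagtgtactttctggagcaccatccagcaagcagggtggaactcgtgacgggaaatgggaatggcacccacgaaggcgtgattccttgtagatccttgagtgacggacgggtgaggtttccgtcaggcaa
Prph (chr15:99054924-99055173, plus strand): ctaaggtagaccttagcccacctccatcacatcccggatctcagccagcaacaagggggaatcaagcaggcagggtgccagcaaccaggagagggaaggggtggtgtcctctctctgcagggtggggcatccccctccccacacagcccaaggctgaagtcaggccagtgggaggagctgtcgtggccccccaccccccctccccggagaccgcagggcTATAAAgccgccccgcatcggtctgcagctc
Chgb (chr2:132781392-132781641, plus strand): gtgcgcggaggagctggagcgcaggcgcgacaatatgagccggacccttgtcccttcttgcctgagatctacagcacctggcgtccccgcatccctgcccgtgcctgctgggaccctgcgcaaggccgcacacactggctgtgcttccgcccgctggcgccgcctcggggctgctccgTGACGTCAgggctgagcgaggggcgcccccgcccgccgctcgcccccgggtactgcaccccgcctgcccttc
Scg2 (chr1:79440027-79440276, minus strand): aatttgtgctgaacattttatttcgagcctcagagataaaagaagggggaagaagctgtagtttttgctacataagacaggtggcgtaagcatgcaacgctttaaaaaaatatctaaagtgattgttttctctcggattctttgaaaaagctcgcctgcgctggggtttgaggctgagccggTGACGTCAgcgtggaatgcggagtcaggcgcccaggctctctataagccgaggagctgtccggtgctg
The windows printed for Scn10a and Prph lie inside the gene coordinates given above, so each precedes a start site within the gene. The TATAAA of Prph began 31 bases before the start site of its window. The TGACGTCA began 72 bases before the start site in Chgb and 68 bases before it in Scg2. TGACGTCA, searched on both strands, was in a promoter of 6 of the 67 tested genes of the filament, channel, transcription factor, peptide and synapse lists that have one in the table (8.96%). Among them were Isl2, Syn1 and Th besides Chgb and Scg2. It was in 3.02% of 728 genes lower in the 6 libraries, 2.91% of 12013 tested genes and 1.77% of all 27025 genes with a promoter. TATAAA on either strand was in 13.4% of the 67, 8.93% of the 728 lower genes, 8.45% of the 12013 tested genes and 14.3% of all genes with a promoter. TTCAGCACC, a half-site of the RE1 element bound by the neuronal repressor REST, was in 1.49% of the 67 (Syn1), 0.962% of the 728, 0.383% of the 12013 and 0.348% of all genes with a promoter.

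Across the table a gene was counted as lower or higher when its fitted difference was at least 1 on the log2 scale and the 6 and the 18 libraries did not overlap. Of 15385 genes tested, 962 were lower (6.25%) and 1 was higher (0.0065%) in the neuron-poor libraries; because the same contrast chose the libraries, nothing is read from the share of members against this background. Without the condition on size, the groups did not overlap for 1153 genes that were lower (7.49%) and 42 that were higher (0.273%). The median difference over all genes was 0.07. The 962 lower genes had a median genomic length of 45449.5 bp, against 24046 bp for all genes tested, and 33.9% of them were over 100 kb, against 14.9%.

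**Figure D2:**
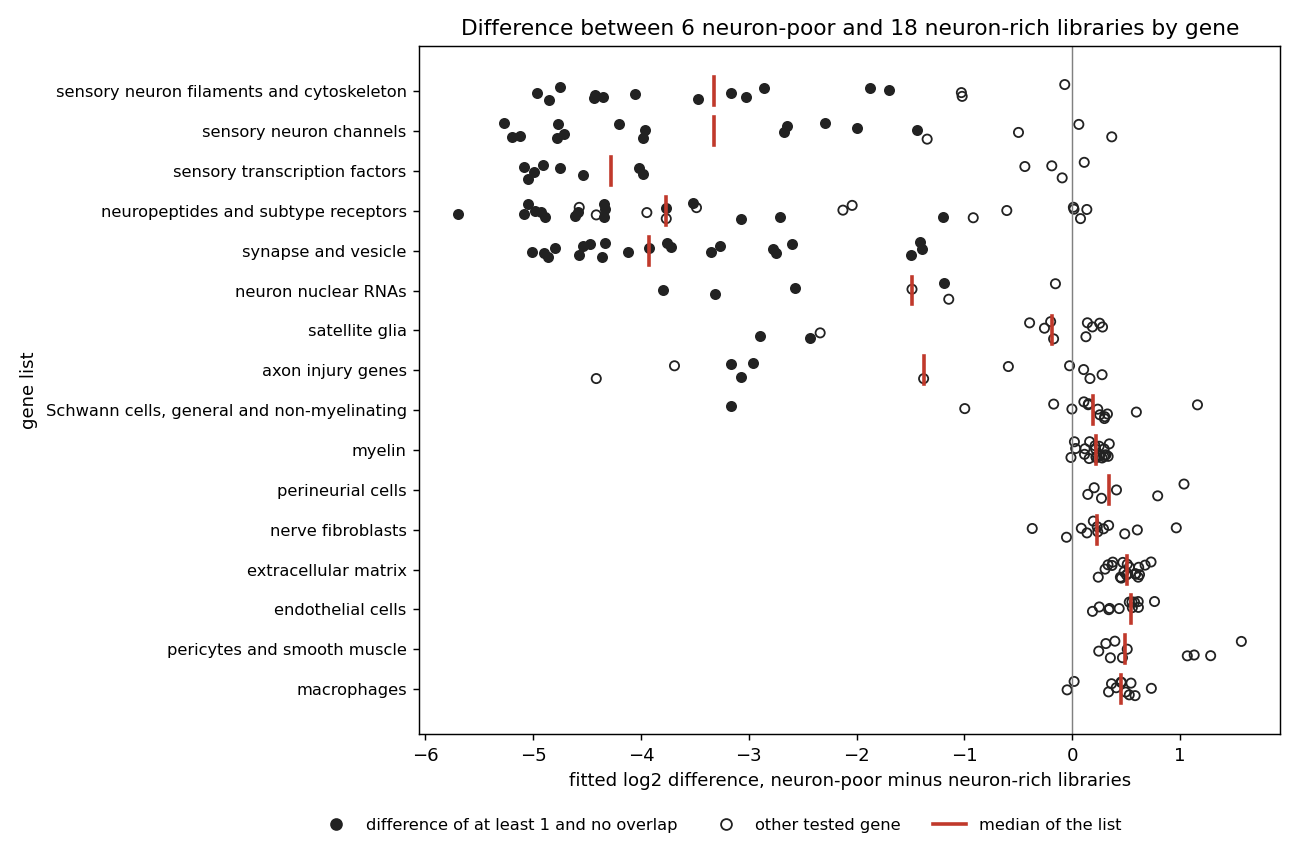
Each point is 1 tested gene of a list, with the fitted log2 difference (neuron-poor minus neuron-rich) on the x axis and the list on the y axis; filled points differ by at least 1 without overlap and red lines are list medians. Genes of the neuron lists extend past Scn10a (-5.20), most satellite glia genes sit near 0, and the sheath lists sit just above 0.

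Within the 18 neuron-rich libraries the score still varied, and this variation was not used to divide them. A slope was therefore fitted for every gene on the score with treatment as a covariate, in units of log2 change per log2 unit of the score, and tested in edgeR by quasi-likelihood, with p-values adjusted by Benjamini and Hochberg's method. Genes and score come from the same libraries and share their scaling, and the score is made of the 3 genes that chose the 6 libraries. The slopes therefore describe which genes vary together with these markers and are no independent support for the split. Of 15475 genes, 2872 rose with the score (18.6%) and 2623 fell (16.9%), with a median slope of -0.03. Without ERKi 3, which has the highest score and liver RNA, 1345 rose and 692 fell, and counts without that library are given beside each list.

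The cytoskeletal genes of neurons ranged from genes close to the markers to genes that remained in every library, with others between. Of 16 listed filament and cytoskeleton genes, 13 were lower in the 6 libraries, with a median difference of -3.32, and 13 of 14 rose with the score (11 without ERKi 3). Tubb3, the neuron-specific beta tubulin, was at 10.03, 23.7, 2.25, 11.3, 49.7 and 2.08 CPM in the 6, and the lowest, median and highest values of the 18 were 173, 316 and 1014 CPM (-4.44 ± 0.56); its slope was 0.997 ± 0.07 (adjusted p = 1.55e-08). Nefm, the medium neurofilament chain, was at 1.83 to 48.8 CPM in the 6 and 169 to 998 CPM in the 18 (-4.75 ± 0.59), and Nefh, the heavy chain, differed by -4.85 ± 0.67. Gap43, a growth cone protein that Schwann cells also make, was at 0.913 to 7.17 CPM against 16.4 to 70.7 CPM (-3.16 ± 0.34), with a slope of 0.73 ± 0.14 (adjusted p = 6.04e-04). These filament genes did not overlap between the groups.

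Map1b, a microtubule-associated protein of growing axons, was at 1336, 1635, 870.2, 1207, 1755 and 1119 CPM in the 6, and the lowest, median and highest values of the 18 were 2438, 4149 and 10537 CPM (-1.70 ± 0.26), without overlap. In the 6 libraries 21.04 to 41.59% of the Map1b level of the neuron-rich libraries of the same treatment remained. Mapt, which encodes tau, was at 30.7 to 76.1 CPM against 66.9 to 258 CPM (-1.03 ± 0.21), and Sncg, which encodes gamma-synuclein, differed by -1.02 ± 0.22; both overlapped. Sncg had a slope of 0.24 ± 0.14 (adjusted p = 0.183) and did not pass. Dpysl2, a tubulin-binding protein made by many cell types, was at 631 to 836 CPM against 663 to 1093 CPM (-0.07 ± 0.09). Averaged over the 4 libraries with the lowest score, and as a percent of the neuron-rich libraries of the same treatment, the level that remained was 0.24% for Scn10a, 0.754% for Nefl, 27.8% for Map1b, 45.1% for Mapt, 52.4% for Sncg and 93.0% for Dpysl2. Other members lay between Nefl and Map1b, with Gap43 at 9.3%, Uchl1 at 12.1% and Kif5a at 23.55%. Genes called neuronal by their list name therefore ranged from near the limit of detection to nearly the full level in the same 4 libraries.

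The sensory channels showed the same range. Of 18 channel genes 14 were lower in the 6 libraries (median -3.32), and of 17 with a slope 14 rose and 2 fell (14 and 1 without ERKi 3). Scn11a, the nociceptor channel Nav1.9, was at 1.24, 6.45, 0.136, 0.161, 22.2 and 0.379 CPM in the 6, and the lowest, median and highest values of the 18 were 53.3, 119 and 422 CPM (-5.13 ± 0.79); its slope was 1.42 ± 0.12 (adjusted p = 1.33e-07). Trpa1, the receptor for irritants, was at 0.0537 to 4.64 CPM against 14.97 to 79.6 CPM (-5.27 ± 0.65). P2rx3, the ATP receptor of nociceptors, was at 0.758 to 13.8 CPM against 38.7 to 202 CPM (-4.77 ± 0.57). These 3 nociceptor channels lay with the markers, without overlap. Trpv1, the capsaicin and heat receptor, was less low (-2.65 ± 0.34), with 9.30 to 52.7 CPM in the 18.

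Piezo2, the touch channel, was at 76.8, 76.4, 61.2, 101, 65.5 and 73.7 CPM in the 6, and the lowest, median and highest values of the 18 were 97.7, 179.7 and 416 CPM (-1.34 ± 0.25), so that the groups met at the level of CDKi 5. Its slope was 0.85 ± 0.10 (adjusted p = 5.02e-06). Kcna1, a potassium channel of the juxtaparanode beside the node of Ranvier, was at 4191, 4631, 3289, 2155, 2860.0 and 5197 CPM in the 6, and the lowest, median and highest values of the 18 were 1452, 2867 and 3964 CPM (0.37 ± 0.19). Kcna2, its partner in the same channel, was at 1061 to 3444 CPM against 836 to 2829 CPM (0.06 ± 0.22). Both potassium channels overlapped between the groups and both fell with the score: the slope of Kcna2 was -0.62 ± 0.13 (adjusted p = 0.00181), and without ERKi 3 it was -0.65 (adjusted p = 0.0168). The slope of Kcna1 was -0.58 ± 0.13 (adjusted p = 0.00205), and without ERKi 3 it was -0.41 (adjusted p = 0.0657) and did not pass.

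Of 12 transcription factors of sensory neurons 8 were lower in the 6 libraries (median -4.28), and 11 of 12 rose with the score (9 without ERKi 3). Pou4f1, which encodes BRN3A, a factor of all somatosensory neurons, was at 0.355, 2.25, 0.545, 0.376, 5.51 and 0.442 CPM in the 6, and the lowest, median and highest values of the 18 were 18.7, 36.7 and 134 CPM (-4.75 ± 0.53); its slope was 1.08 ± 0.08 (adjusted p = 3.29e-08). Isl1, which acts with it, was at 0.189 to 4.37 CPM against 18.6 to 78.2 CPM (-4.91 ± 0.51). Isl2, a related LIM homeodomain factor, was at 0 to 2.71 CPM against 10.6 to 68.4 CPM (-5.05 ± 0.56). These nuclear regulators, whose transcripts mark neuron bodies, did not overlap between the groups. Prrxl1, a homeobox factor of nociceptors, had no read in 3 of the 6 libraries and 1.65 to 16.6 CPM in the 18. Runx1, which nociceptors share with immune cells, was at 28.2 to 65.6 CPM against 39.1 to 129 CPM (-0.44 ± 0.22) and rose with the score with a slope of 0.65 ± 0.11 (adjusted p = 1.98e-04). Etv1 was at 197 to 333 CPM against 169 to 356 CPM (-0.09 ± 0.14), and its slope of -0.04 ± 0.11 (adjusted p = 0.812) did not pass. Runx3 (0.11 ± 0.27) and Shox2 (-0.19 ± 0.22) also overlapped.

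Of 29 neuropeptides and subtype receptors 16 were lower in the 6 libraries (median -3.77), and 23 rose with the score and 0 fell (13 and 0 without ERKi 3). Calca, the precursor of the peptide CGRP, was at 0.266, 3.90, 1.23, 0.268, 28.3 and 0.694 CPM in the 6, and the lowest, median and highest values of the 18 were 57.1, 144 and 335 CPM (-5.05 ± 0.73); its slope was 0.90 ± 0.14 (adjusted p = 9.07e-05). Tac1, the precursor of substance P, was at 0.355, 2.96, 0.204, 0, 14.5 and 0 CPM in the 6, and the lowest, median and highest values of the 18 were 39.2, 79.4 and 156 CPM (-5.09 ± 0.73). Calcb, the second CGRP gene, had no read in 4 of the 6 libraries, 0.592 CPM in vehicle 5 and 2.89 CPM in combination 3, and the lowest, median and highest values of the 18 were 11.7, 27.3 and 55.3 CPM. In each of these peptide genes the values left in the 6 were mainly those of combination 3 and vehicle 5. Where most of the 6 libraries have no read (Calcb, Nppb, Nts, Hoxd1, Snrpn, Lhfpl5, Gpr139 and the receptors Mrgpra3, Mrgprb4 and Mrgprb5), the fitted difference depends on the model and is no bound, so it is not given.

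Among the receptors, Mrgprd, which marks non-peptidergic nociceptors, was at 0 to 7.26 CPM against 18.7 to 117 CPM (-4.93 ± 0.71). It had 1, 37, 2, 0, 83 and 0 counts in the 6, mostly under the limit of 3, so its fitted difference depends on the model. Ret, the signalling receptor of the GDNF family, was at 14.5, 37.3, 17.04, 18.5, 27.5 and 2.65 CPM in the 6, and the lowest, median and highest values of the 18 were 53.7, 122 and 422 CPM (-2.71 ± 0.46); its slope was 1.25 ± 0.07 (adjusted p = 6.52e-09), among the smallest p-values of the table. Receptors that Schwann cells and fibroblasts also make stood apart from these. Ntrk2, the BDNF receptor, was at 262 to 359.8 CPM against 214 to 410.3 CPM (0.08 ± 0.12), with a slope of 0.03 ± 0.13 (adjusted p = 0.894). Ntrk3, the NT-3 receptor, was at 95.9 to 163 CPM against 60.5 to 225 CPM (0.14 ± 0.20). Gfra1 and Gfra2, co-receptors of RET, differed by 0.02 ± 0.15 and 0.01 ± 0.17. Each of these 4 genes overlapped between the groups and had a slope that did not pass. Pvalb, a calcium buffer of proprioceptors and of fast muscle, was at 0.799, 2.19, 1.36, 34.04, 5.16 and 2.97 CPM in the 6 and 10.3 to 74.1 CPM in the 18, and the overlap came from CDKi 5, the library with skeletal muscle RNA, whose part in this value was not tested.

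All 21 synapse and vesicle genes were lower in the 6 libraries (median -3.92), and 20 of 21 rose with the score (19 without ERKi 3). Snap25, a SNARE protein of vesicle fusion, was at 15.4, 20.2, 9.68, 6.12, 69.2 and 12.6 CPM in the 6, and the lowest, median and highest values of the 18 were 224, 413 and 1004 CPM (-4.37 ± 0.43); its slope was 0.76 ± 0.10 (adjusted p = 2.01e-05). Scg2, the granin whose promoter is printed above, was at 3.02, 2.01, 0.886, 0.161, 17.3 and 0.379 CPM in the 6, and the lowest, median and highest values of the 18 were 41.6, 104 and 200.3 CPM (-5.01 ± 0.63). Chgb, the other granin shown, was at 1.86, 1.18, 1.23, 0.752, 3.94 and 0.379 CPM in the 6, and the lowest, median and highest values of the 18 were 5.38, 10.9 and 27.6 CPM (-2.77 ± 0.38), with a slope of 0.97 ± 0.08 (adjusted p = 8.72e-08). Slc17a6, the vesicular glutamate transporter VGLUT2, was at 0 to 14.3 CPM against 34.98 to 191 CPM (-4.90 ± 0.65). Sv2b, a vesicle glycoprotein, was at 1.07 to 26.8 CPM against 79.4 to 355 CPM (-4.80 ± 0.52). Small differences within the list were those of Nsf, a fusion protein (-1.497 ± 0.24), and Scg3, a granule protein (-1.41 ± 0.23). Resp18, a peptide-granule protein, was the member that did not pass, with a slope of 0.40 ± 0.16 (adjusted p = 0.0619).

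Of 7 nuclear RNAs tested that are abundant in neurons, 4 were lower in the 6 libraries (median -1.49), and 6 rose with the score (5 without ERKi 3). Meg3, a long noncoding RNA of an imprinted cluster, was at 176, 146, 179, 119.9, 109.9 and 101 CPM in the 6, and the lowest, median and highest values of the 18 were 214, 312 and 597 CPM (-1.19 ± 0.22), with a slope of 0.54 ± 0.12 (adjusted p = 0.00199). Its neighbour Rian was at 71.7 to 125 CPM against 119 to 429 CPM (-1.49 ± 0.19) and overlapped. Miat, a spliced noncoding RNA, was at most 14.1 CPM in the 6 and 22.5 to 136 CPM in the 18 (-3.31 ± 0.46). Imprinted Peg13 was at 149 to 229 CPM against 152 to 229 CPM (-0.15 ± 0.08), with a slope of 0.12 ± 0.07 (adjusted p = 0.149). The strand setting of the counting is not given in the sources used here, so reads of overlapping and antisense genes cannot be told apart in these RNAs.

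Most satellite glia genes overlapped between the groups: 2 of 12 were lower in the 6 libraries, the median difference was -0.19, and 3 rose and 3 fell with the score (3 and 0 without ERKi 3). Aldoc, aldolase C, was at 5.42, 3.08, 9.54, 2.42, 7.35 and 5.75 CPM in the 6, and the lowest, median and highest values of the 18 were 24.6, 39.96 and 116 CPM (-2.90 ± 0.34), without overlap. It rose with the score at a slope of 0.84 ± 0.14 (adjusted p = 1.49e-04), or 0.59 (adjusted p = 0.0303) without ERKi 3. Bcan, which encodes the matrix proteoglycan brevican, was at 4.08, 1.30, 3.27, 0.752, 1.93 and 2.78 CPM in the 6, and the lowest, median and highest values of the 18 were 7.14, 12.3 and 36.4 CPM (-2.43 ± 0.38), without overlap. Its slope was 0.91 ± 0.13 (adjusted p = 2.80e-05), or 0.78 (adjusted p = 0.00555) without ERKi 3. Fabp7, the fatty acid binding protein that is the usual marker of satellite glia, was at 8.17, 14.7, 13.8, 6.07, 10.4 and 2.78 CPM in the 6, and the lowest, median and highest values of the 18 were 10.2, 48.1 and 153 CPM (-2.34 ± 0.41). The highest of the 6, vehicle 5, exceeded the lowest of the 18, and the slope of Fabp7 was 0.64 ± 0.30 (adjusted p = 0.11) and did not pass.

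Kcnj10, the potassium channel Kir4.1 by which satellite glia buffer potassium, was at 426, 329, 283, 202, 344 and 158 CPM in the 6, and the lowest, median and highest values of the 18 were 108, 225 and 416 CPM (0.26 ± 0.19). Its slope of 0.23 ± 0.17 (adjusted p = 0.311) did not pass. Glul, glutamine synthetase, was at 168 to 521 CPM against 211 to 631 CPM (-0.26 ± 0.21). Gja1, connexin 43 of the gap junctions between satellite cells, was at 15.9 to 24.7 CPM against 15.4 to 30.7 CPM (-0.17 ± 0.12). Slc1a3, the glutamate transporter GLAST, was at 15.4 to 29.5 CPM against 17.4 to 37.01 CPM (-0.39 ± 0.13). All 4 genes overlapped between the groups, and Kcnj10, Glul and Gja1 are also made by Schwann cells. The summed level of the list was 1835 to 2228 CPM in the 6 and 1636 to 2318 CPM in the 18.

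The share of a gene that remained was also taken in each of the 6 libraries, relative to the neuron-rich libraries of the same treatment, and its median given for each list. The synapse list remained at 11.1, 8.34, 5.84, 1.97, 15.7 and 2.92%, and the transcription factors at 3.85, 8.93, 2.06, 0.466, 16.9 and 0.722%. Nuclear RNAs remained at 32.2, 52.4, 40.0, 29.3, 28.7 and 23.9%. Satellite glia genes remained at 89.0, 91.8, 95.5, 79.8, 94.6 and 77.7%, and myelin genes at 103, 135, 107, 174, 62.3 and 128%. CDKi 5 and combination 5 kept the least of the filament, channel, transcription factor, peptide and synapse lists, and combination 3 kept the most of each.

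**Figure D3:**
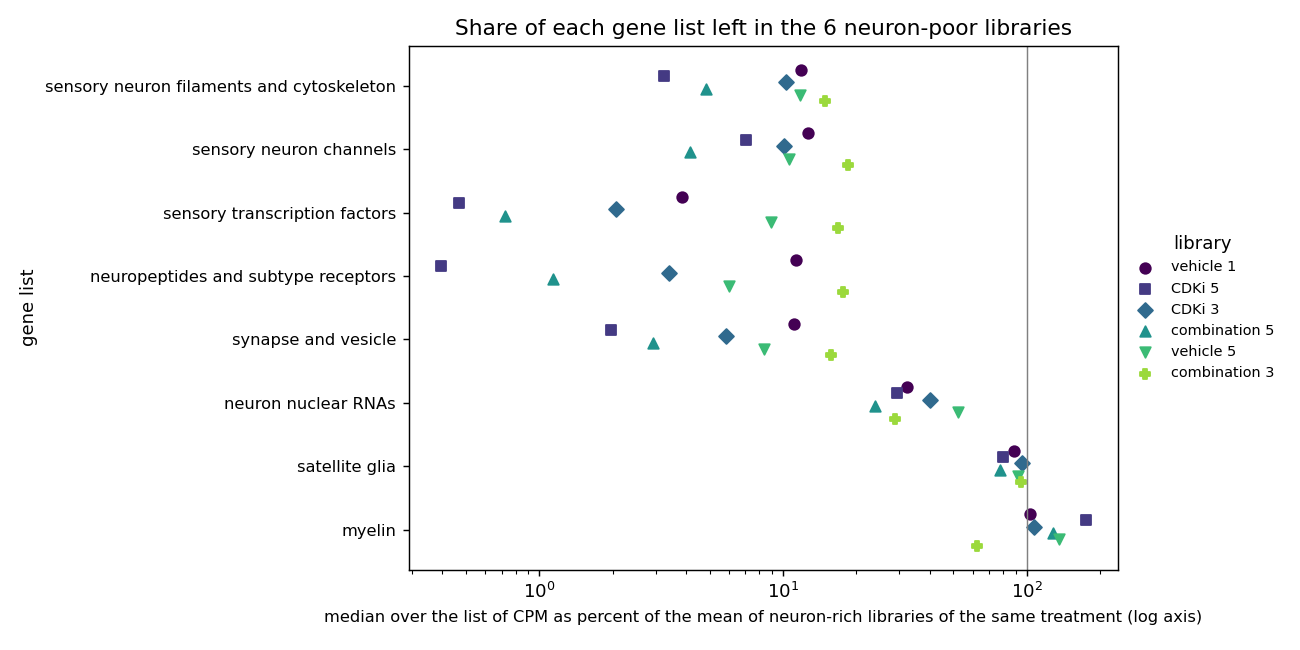
Points are the 6 neuron-poor libraries, the x axis (log) is the median over a list of CPM as a percent of the mean of the neuron-rich libraries of the same treatment, and the grey line marks 100%. Neuron lists lie between 0.395% and 18.6%, nuclear RNAs between 23.9% and 52.4%, satellite glia genes between 77.7% and 95.5% and myelin genes between 62.3% and 174%.

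Several defining genes of other neurons and of central glia were at or near the limit of detection, also in the 18 libraries. The highest of the 18 was 0.536 CPM for Chat, 0.213 for Slc18a3, 0.114 for Mnx1 and 0.179 for Lhx3, genes of motor neurons. The motor list has 2 tested genes, of which 1 was lower in the 6 libraries (median -1.77) and 1 rose with the score. The lower one was Slc5a7, the choline transporter of cholinergic neurons, at 0.107 to 1.09 CPM in the 6 and 1.25 to 3.65 CPM in the 18 (-1.76 ± 0.36), without overlap. The slope of Slc5a7 was 0.49 ± 0.18 (adjusted p = 0.0465), 0.27 (adjusted p = 0.508) without ERKi 3, and -0.012 (adjusted p = 0.983) without ERKi 3 and combination 2. Chodl was at 0 to 0.525 CPM in the 6 and 0.0549 to 2.38 CPM in the 18 (-1.78 ± 0.62), with overlap. The highest of the 18 was 0.380 CPM for Dbh, a gene of sympathetic neurons. It was 0.357 for Mog, 0.399 for Opalin and 0.536 for Slc6a5, genes of brain and spinal cord. The summed level of the motor list was 0.107 to 1.78 CPM in the 6 and 1.70 to 5.63 in the 18, that of the sympathetic list 4.81 to 17.1 and 3.31 to 29.1, and that of the brain and spinal cord list 5.80 to 31.7 and 30.8 to 152. The 1 lower gene of the last list was Camk2a, a kinase that sensory neurons also make, at 1.70 to 6.04 CPM against 19.1 to 101 CPM (-3.06 ± 0.41). Other members were not near the limit in every library: Aqp4, the water channel of astrocytes, was at 5.49 to 30.5 CPM in the 18 and rose with the score at 1.05 ± 0.12 (adjusted p = 2.81e-06). In the 6, Aqp4 was at 69.15, 7.77, 20.4, 3.3, 11.2 and 0.425% of the neuron-rich libraries of the same treatment. Olig1, a factor of oligodendrocytes, was at 0.228 to 32.8 CPM in the 18. Slc6a2, the noradrenaline transporter, was at 1.92 to 13.5 CPM in the 6 and 0.627 to 20.2 CPM in the 18. In vehicle 1, Gad1 of the brain and spinal cord list had 55 counts, Mobp 35, Gad2 26 and Slc32a1 9, against the limit of 3. Gad1 and Mobp were there at 373% and 1015% of the neuron-rich vehicle libraries. Of the 6 tested genes of that list, 4 differed below 0 and 2 above 0 (median -1.16). In the 18 libraries Scn10a, Scn11a, Pou4f1 and Isl1, defining genes of sensory neurons, were each at 18.6 CPM or more, above the limit of detection. The 18 are the libraries with higher Scn10a, Nefl and Prph, so these levels follow in part from that choice. The source of the neuron RNA was not tested.

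Of 11 tested genes of axon injury, 3 were lower in the 6 libraries (median -1.38), and 5 rose with the score (2 without ERKi 3). Atf3, the transcription factor that axotomised neurons and Schwann cells switch on, was at 7.73 to 38.01 CPM against 6.72 to 29.01 CPM (-0.02 ± 0.23), with a slope of -0.11 ± 0.20 (adjusted p = 0.707). Jun, its partner, was at 73.4 to 139 CPM against 76.8 to 118 CPM (0.28 ± 0.12). The 3 lower genes were Gap43, Sox11 (-2.96 ± 0.56), a factor of growing neurons, and Gal, which encodes galanin, at 0 to 0.437 CPM against 0.549 to 2.51 CPM (-3.07 ± 0.49).

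The nerve sheath was present in all 24 libraries, and its genes lay near 0 or slightly above it. Of 20 myelin genes 0 were lower or higher (median 0.22, against 0.07 for all genes). Mbp, myelin basic protein, was at 5890.0, 7190.0, 4729, 7336, 3919 and 6796 CPM in the 6, and the lowest, median and highest values of the 18 were 1538, 4935 and 6974 CPM (0.33 ± 0.24), with overlap. Pmp22, a membrane protein of compact myelin, differed by 0.22 ± 0.34, also with overlap. With the score 11 of 20 myelin genes fell, with a median slope of -0.70. The counts depended on ERKi 3: without it 2 fell (median -0.42), and without ERKi 3 and combination 2, an alternative chosen after seeing the data, 0 fell (median -0.15). The mean log2 CPM of the myelin list was 6.70 in ERKi 3 and 7.02 in combination 2, and 8.05 to 8.71 in the other neuron-rich libraries. The slope of Mbp was -0.73 ± 0.20 (adjusted p = 0.0103), or -0.46 (adjusted p = 0.177) without ERKi 3. The slope of Cnp, an enzyme of myelin, was -0.74 ± 0.15 (adjusted p = 9.49e-04), or -0.57 (adjusted p = 0.033) without ERKi 3.

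Of 14 Schwann cell genes 1 (Gap43, which neurons share) was lower in the 6 libraries (median 0.20), and 2 rose and 6 fell with the score (2 and 3 without ERKi 3). Sox10, the factor of the whole Schwann lineage, differed by 0.24 ± 0.18, and S100b, a calcium-binding protein of the same cells, by -0.17 ± 0.21. Ngfr, the low-affinity neurotrophin receptor of sensory neurons and non-myelinating Schwann cells, was at 52.8, 67.9, 46.1, 52.8, 49.8 and 53.4 CPM in the 6, and the lowest, median and highest values of the 18 were 75.6, 101 and 230.0 CPM (-0.996 ± 0.20). The groups did not overlap for Ngfr, but its unrounded difference was just under 1 in size; its slope was 0.69 ± 0.07 (adjusted p = 1.78e-06), or 0.70 (adjusted p = 1.79e-04) without ERKi 3. Gfap, an intermediate filament of non-myelinating Schwann cells and of reactive satellite glia, was at 47.95, 21.8, 42.9, 24.9, 52.1 and 24.3 CPM in the 6, and the lowest, median and highest values of the 18 were 5.07, 11.9 and 42.9 CPM (1.16 ± 0.36), with overlap. Scn7a, a sodium channel of non-myelinating Schwann cells, differed by 0.30 ± 0.28 and fell with the score at -0.78 ± 0.16 (adjusted p = 0.00164), or -0.74 (adjusted p = 0.0242) without ERKi 3.

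In the connective tissue and vessel lists no gene was lower or higher by the same rule, and the medians given here were above that of all genes (0.07). The matrix genes had a median of 0.51 with 20 of 20 above 0, as in Col1a1, the main chain of type I collagen (0.61 ± 0.41), and Sparc, a collagen-binding matrix protein (0.46 ± 0.22). With the score 6 of 20 matrix genes fell, and 0 without ERKi 3. The median was 0.24 for nerve fibroblasts, of which 5 of 12 fell with the score (5 without ERKi 3); Apod, an endoneurial lipocalin, had a slope of -0.58 ± 0.14 (adjusted p = 0.00429), or -0.60 (adjusted p = 0.0311) without ERKi 3. The median was 0.34 for perineurial cells, 0.54 for endothelial cells, 0.49 for pericytes and smooth muscle and 0.46 for macrophages. With the score 4 of 12 endothelial genes fell (1 without ERKi 3), 2 of 10 pericyte and smooth muscle genes (0) and 1 of 12 macrophage genes (1). Acta2, smooth muscle actin, differed by 1.13 ± 0.32 with overlap, and Pecam1, the endothelial adhesion molecule CD31, by 0.61 ± 0.27. The skeletal muscle list had a median of 2.59 and 0 genes without overlap, and the muscle RNA lay mainly in CDKi 5.

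**Figure D4:**
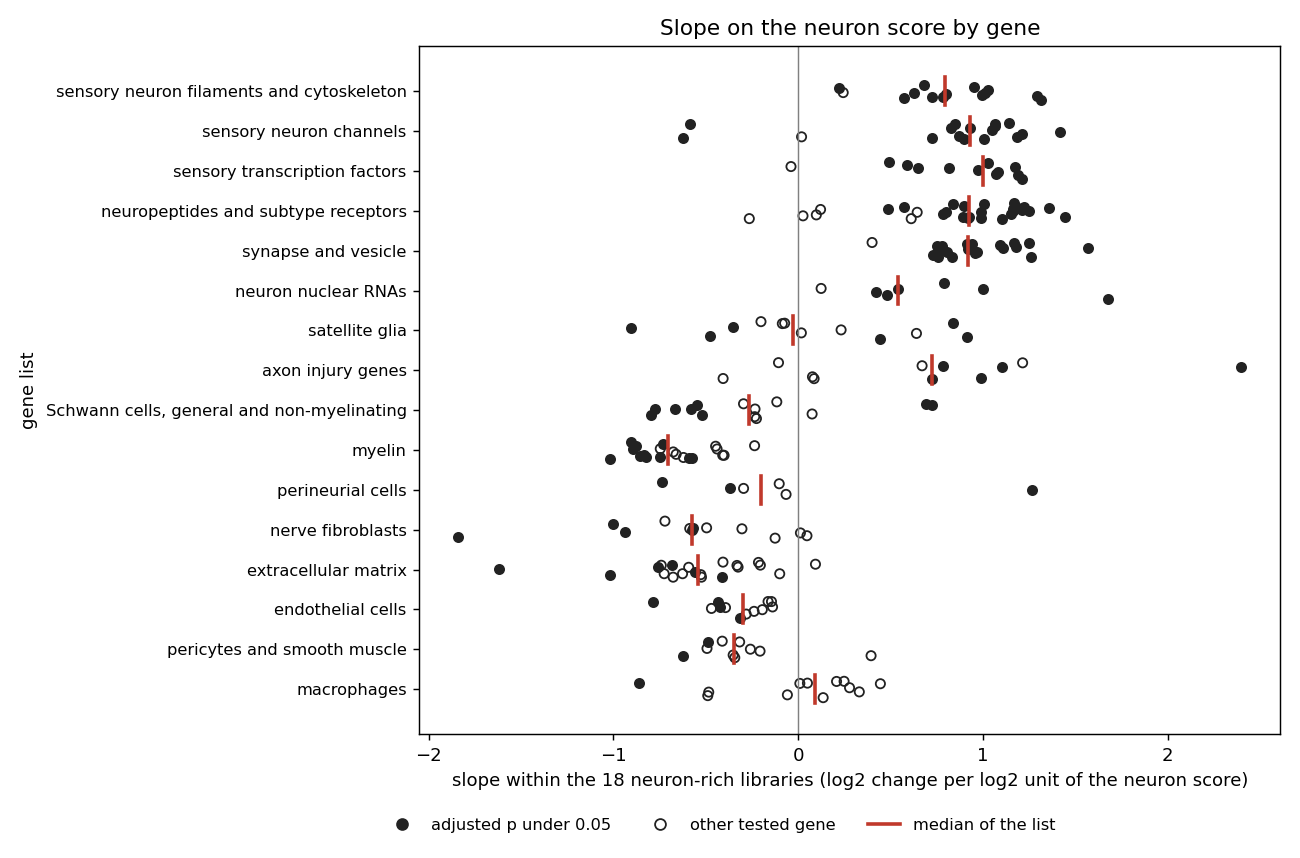
Each point is 1 tested gene of a list, the x axis is its slope within the 18 neuron-rich libraries (log2 change per log2 unit of the neuron score), filled points have an adjusted p under 0.05 and red lines are list medians. The synapse, channel and transcription factor genes gather near 1, satellite glia genes spread around 0 with Aldoc (0.84) and Bcan (0.91) among the neuron genes, and myelin and matrix genes lie mostly below 0, where fewer of them pass without ERKi 3.

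The 12 genes with the largest fitted difference were taken among lower genes with a mean log2 CPM of at least 1. Pirt, a membrane protein that regulates TRPV1, was at 0.799, 6.98, 0.341, 1.13, 32.5 and 0.694 CPM in the 6, and the lowest, median and highest values of the 18 were 113, 174 and 375 CPM (-5.20 ± 0.70). Htr3a, a subunit of the serotonin-gated channel, was at 0.0537 to 4.46 CPM against 15.8 to 53.4 CPM (-5.30 ± 0.52). Chrna6, a nicotinic receptor subunit, was at 0 to 2.45 CPM against 9.03 to 39.4 CPM (-5.53 ± 0.57). F2rl2, a protease-activated receptor, was at 0.0888 to 5.69 CPM against 17.6 to 51.1 CPM (-5.12 ± 0.55), and Mrgprx1, an itch receptor, at 0 to 1.49 CPM against 4.93 to 21.7 CPM (-5.20 ± 0.56). Trpa1, Scn10a, Scn11a and Tac1 made up the set together with Calcb, Lhfpl5 and Gpr139. Scn10a was itself used to choose the 6 libraries, and each of the 12 was without overlap by the rule. Calcb, Lhfpl5 and Gpr139 had no read in 4 of the 6 libraries, so their place among the 12 rests on fitted values that depend on the model. Trpa1, Htr3a, Chrna6 and Mrgprx1 had counts under the limit of 3 in several of the 6, so their fitted differences depend on the model too.

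The genes with the smallest p for a rising slope were Cend1, Ret, Aplp1, Reep1, Dpp6, Add2, Ndrg4 and Tusc5. Cend1, which promotes the exit of neuronal precursors from the cell cycle, was at 2.84, 5.26, 2.73, 2.63, 9.36 and 2.34 CPM in the 6, and the lowest, median and highest values of the 18 were 30.98, 56.6 and 161 CPM (-3.82 ± 0.35); its slope was 0.93 ± 0.05 (adjusted p = 4.57e-09). The slope was 0.95 ± 0.05 (adjusted p = 7.42e-09) for Aplp1, a relative of the amyloid precursor protein, and 1.10 ± 0.07 (adjusted p = 1.10e-08) for Dpp6, an auxiliary subunit of potassium channels. The genes with the smallest p for a falling slope were Tmem140, Tril, Il11ra1, Foxo4, Celf2, Ppp2r3a, Gk5 and Ctns. Il11ra1, a receptor for interleukin 11, had a slope of -0.67 ± 0.09 (adjusted p = 1.20e-05), or -0.59 (adjusted p = 7.64e-04) without ERKi 3. Foxo4, a forkhead factor restrained by growth signals, had a slope of -0.52 ± 0.07 (adjusted p = 1.43e-05), or -0.45 (adjusted p = 0.00115) without ERKi 3. Of the falling genes Tmem140 differed between the 6 and the 18 by 0.14 ± 0.24 and Foxo4 by 0.47 ± 0.13.

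The only gene counted as higher in the 6 libraries was Tfcp2l1, a transcription factor of ductal epithelium. Its level was 12.6, 6.74, 4.77, 4.94, 9.80 and 3.47 CPM in the 6, and the lowest, median and highest values of the 18 were 1.37, 2.21 and 3.20 CPM (1.66 ± 0.21). All 6 values exceeded all 18, and among the 18 its slope was -0.04 ± 0.16 (adjusted p = 0.929) and did not pass. Ccnd1, cyclin D1, the partner of CDK4 and CDK6 and a product of ERK signalling, was at 700.4, 443, 505, 309, 796 and 346 CPM in the 6, and the lowest, median and highest values of the 18 were 127, 272 and 426 CPM (1.02 ± 0.24), with overlap. Etv5, an ERK-dependent factor that neurons also make, differed by -0.25 ± 0.18 and rose with the score at 0.57 ± 0.09 (adjusted p = 7.77e-05), or 0.60 (adjusted p = 0.00215) without ERKi 3.

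The treatment comparisons ask how ERK1/2 and CDK4/6 inhibition changed the nerve, and the neuron-poor libraries fall unevenly over them, since ERKi has 0 of them and each other group 2. With all 24 libraries and no term for the split, the median log2 difference of ERKi minus vehicle was 0.94 for the synapse list, 0.91 for the filaments, 0.79 for the channels, 0.91 for the transcription factors and 0.72 for the peptides and receptors. With the split as a covariate these medians were 0.41, 0.40, 0.31, 0.53 and 0.23, and with the 18 neuron-rich libraries only they were 0.44, 0.41, 0.26, 0.57 and 0.31. The satellite glia list had medians of -0.02, -0.07 and -0.13 in the same 3 fits, myelin -0.32, -0.24 and -0.24 and matrix -0.62, -0.45 and -0.45. No gene of these lists passed the edgeR test in any of the 3 fits at an adjusted p under 0.05. Snap25 was higher in ERKi than in vehicle by 0.96 ± 0.93 (adjusted p = 0.712) with all libraries, by 0.41 ± 0.40 (adjusted p = 0.913) with the split and by 0.40 (adjusted p = 0.879) in the 18. Scn10a was higher in ERKi than in vehicle by 0.91 ± 1.21 (adjusted p = 0.782) with all libraries, by 0.41 ± 0.75 (adjusted p = 0.938) with the split and by 0.33 (adjusted p = 0.904) in the 18. Aldoc was higher in ERKi than in vehicle by 0.95 ± 0.70 (adjusted p = 0.674) with all libraries, by 0.49 ± 0.35 (adjusted p = 0.913) with the split and by 0.43 (adjusted p = 0.879) in the 18. Against vehicle, the synapse list had a median of 0.05 in CDKi and 0.38 in combination with all libraries, and -0.19 and 0.48 with the split as a covariate.

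By the same test ERKi against vehicle gave 0 genes at an adjusted p under 0.05 (0%; 975 at an unadjusted p under 0.05), 0 with the split as a covariate (570) and 0 with the 18 libraries (646). DESeq2 gave 2 with all 24 libraries. CDKi gave 0 (0%; 480 unadjusted), 1 with the split and 0 with the 18 (307 unadjusted), and 30 with DESeq2; the 1 gene was Dgat2, the last enzyme of triglyceride synthesis, with a log2 difference of 1.55 ± 0.25 (adjusted p = 0.0331). The combination gave 19 (0.123%), of which 2 rose and 17 fell; with the split it gave 38 (0.247%), of which 6 rose and 32 fell, and these included all 19. With the 18 libraries it gave 0 (1099 unadjusted, smallest adjusted p 0.228). Etv4, an ERK-dependent transcription factor, fell in the combination by 1.60 ± 0.24 (adjusted p = 0.0169) on the log2 scale with all libraries and by 1.58 ± 0.24 (adjusted p = 0.0185) with the split, and its difference was -1.41 (adjusted p = 0.255) in the 18. Atf3 rose by 1.42 ± 0.26 (adjusted p = 0.0361) on the log2 scale with all libraries and by 1.42 ± 0.27 (adjusted p = 0.0304) with the split, and the value was 1.32 (adjusted p = 0.518) in the 18. None of the 38 genes was counted as lower or higher between the neuron-poor and neuron-rich libraries. Of all 15385 genes tested 6.25% were lower and 0.0065% higher, so few of 38 could be counted and nothing is read from this. Tex40, 1 of the 38, differed by -1.01 but overlapped. In that contrast Etv4 differed by 0.21 ± 0.20 and Atf3 by -0.02 ± 0.23.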

How the data were processed

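RNA was sequenced from 24 sciatic nerve samples, 6 in each of 4 treatment groups taken from the treatment label, and replicate numbers in accession order only name a sample. The authors deposited unscaled counts of reads for each gene in 1 column per sample. The submitters' processing notes name STAR, FastQC, DESeq2 and the genome build mm10, per the labels. Which program and annotation gave the counts, and with which strand setting, is not given in the sources used here. Per the labels' protocols ribosomal RNA was removed with a kit, while the molecule label reads polyA RNA.

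Total counts were 5391543 to 42321550, and intervals and floors of 3 counts cover counting error only. No library repeated another of its group within sampling noise (60 pairs, chi-square divided by degrees of freedom at least 19.8). The analysis used edgeR 4.0.16 under R 4.3.3: filterByExpr kept genes (minimum count 10, minimum total 15; 15385 of 24421 genes over 24 libraries and 15478 over 18), libraries were scaled by TMM, and a robust quasi-likelihood model was fitted. The fits were the difference between the 6 and the 18 libraries with treatment as a covariate (19 residual degrees of freedom, no test), the slope on the neuron score within the 18 (13 residual degrees of freedom, leaving out Scn10a, Nefl and Prph) and each treatment against vehicle. The common biological coefficient of variation was 28.1% with the split and 21.8% within the 18. P-values are two-sided with Benjamini-Hochberg adjustment over all genes tested and a threshold of 0.05. SE are fitted, and log2 CPM of the score used a prior count of 2. The level that remained in a library is its CPM as a percent of the mean of the neuron-rich libraries of the same treatment.

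The libraries, members and gene lists were chosen with earlier results of these data known. Genes were named from the neuron and satellite glia lists with the most abundant tested members first, from the other lists with up to 4 of the most abundant, and from the 12 largest differences in each direction and the 8 smallest p-values for a slope in each direction, at a mean log2 CPM of at least 1. Further sheath, injury and treatment genes (Gfap, Ngfr, Ccnd1, Etv5, Etv4, Atf3, Dgat2 and others outside this rule) were chosen after their values were seen. Gene and promoter coordinates are from RefSeq on GRCm38.p6 (the same coordinates as mm10), and 24313 symbols (99.6%) matched. Alternatives were RLE and upper quartile scaling, other filters, DESeq2 1.42.0, limma 3.58.1 (voom), other covariates, and leaving out libraries. In counts tested on simulated data, the slope fit over 15478 genes recovered 97 of 100 genes with a slope of 1 and 60 of 100 with a slope of 0.5, with 10 false calls, and the combination against vehicle over 15385 genes recovered 65 of 100 changed by 1 log2 and 13 of 100 changed by 0.5, with 6 false calls.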

Additional observations from a re-analysis of the deposited data

Results flagged for a closer look

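The mean log2 CPM of each gene list was compared over the 6 neuron-poor libraries, and in 2 of 27 lists 1 library stood apart from the other 5 beyond the 95% critical value of Dixon's test, which chance alone passes in about 1 of 20. Only tested genes enter a mean. The liver list has 2 tested genes of 10, Cyp2e1 and Ttr, and its albumin, apolipoprotein and fibrinogen genes did not pass the filter. Its mean was at 8.18 in CDKi 3 and at 2.82 in the nearest of the others, a gap of 0.66 of the whole range. The list of mast, T and B cell genes (6 tested of 10) was at -0.21 in combination 5 and at 1.45 in the nearest, a gap of 0.642 of the range.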

How the results depend on the processing

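The difference between the 6 and the 18 libraries gave 962 lower genes and between 697 and 1090 in the alternatives run. The single higher gene became 77 within vehicle alone, 75 within CDKi alone and 71 within the combination alone (2 libraries against 4 each), 0 at a difference of at least 2 on the log2 scale and 2 with the 4 lowest libraries against the 18, which was chosen after seeing the data. Leaving out each of the 6 in turn gave 967 to 1058 lower genes and 1 to 2 higher genes. Of the named genes, 2 slopes changed sign, Slc5a7 (-0.0122) and Ttr (-0.0224), both without ERKi 3 and combination 2, which was chosen after seeing the data.

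The slope counts of 2872 rising and 2623 falling genes became 1438 and 615 without ERKi 3 and CDKi 1, and 1125 and 471 without ERKi 3 and combination 2, with fewer samples in each fit. Leaving out each of the 18 in turn gave 1345 to 3102 rising and 692 to 2885 falling genes, the lowest of both without ERKi 3. RLE and upper quartile scaling moved the median of all differences by -0.015 and 0.036.

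For treatments, ERKi against vehicle gave 2 genes with DESeq2 in place of 0. CDKi gave 1 with the split as a covariate, 1 without a filter and 30 with DESeq2, in place of 0. The combination gave 38 with the split, 0 with the 18 libraries, 6 without a filter and 262 with DESeq2, in place of 19; the cause was not tested. No paired analysis was possible because the labels give no replicate numbers. Depth limits genes near 3 counts, which is 0.161 to 0.266 CPM in the 6 libraries.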
